A study of Mus musculus with 2 samples.

Results

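Nuclei labelled as GABAergic neurons of the embryonic mouse brain without detected Dlx transcripts were examined. They were 463 nuclei of 1 Slide-tags library of 9037 nuclei, in a series of 10698 nuclei. They were selected on their own counts of unique molecular identifiers (UMIs), each of which marks 1 captured RNA molecule. The label rests on these counts, and some of the nuclei went against it, as given below. A nucleus was a member if it held at least 2000 UMIs, under 5% mitochondrial UMIs, at least 3 UMIs summed over Gad1 and Gad2, and 0 UMIs summed over Dlx1, Dlx2, Dlx5, Dlx6, Dlx6os1, Lhx6 and Lhx8. Of 7047 nuclei of at least 2000 UMIs, 2698 had at least 3 Gad UMIs (Gad nuclei), and the members were 17.2% of these (95% exact binomial interval 15.8 to 18.6%). The Dlx group, to which the members were compared, was the 1801 Gad nuclei with at least 2 UMIs summed over the 5 Dlx genes. The remaining 434 Gad nuclei belonged to neither group, and 6584 nuclei of at least 2000 UMIs were not members and are called other nuclei. The other nuclei therefore include the Dlx group.

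Gad1 and Gad2 encode the 2 glutamate decarboxylases that make GABA, the main inhibitory transmitter. In the forebrain most GABAergic neurons arise from progenitors of the ganglionic eminences, the preoptic area and the prethalamus that use Dlx homeodomain factors, and Lhx6 and Lhx8 mark neurons of the medial ganglionic eminence and neighbouring regions. In the midbrain, the thalamic border and the hindbrain, GABAergic neurons are instead specified with other factors, among them Gata2, Gata3, Tal1, Tal2, Helt and Sox14 in the midbrain and caudal diencephalon, and Ptf1a, Lhx1, Lhx5 and Pax2 in the cerebellum and hindbrain. A nucleus without Dlx UMIs can also be a Dlx-positive neuron from which no such molecule was captured.

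Slide-tags marks nuclei within a frozen tissue section with spatial barcodes before droplet-based single-nucleus RNA sequencing. The series holds 2 mouse libraries of 20 µm sections, 1 of the brain at embryonic day 14 (E14) from a C57BL/6J embryo and 1 of the adult hippocampus, and no treatment was given to either. The E14 library held 58924407 UMIs, with a median of 4203 per nucleus, and shared 1 barcode with the hippocampus library. Spatial positions were not analysed here.

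With 1 library there were no replicates, so no test between groups was made and all intervals are 95% intervals that cover counting error only. The level of a gene in a group is its summed UMI count divided by the summed count of all genes and multiplied by 1000000 (CPM, counts per 1000000), with an exact Poisson interval. A difference was read as past the threshold when the CPM ratio of 2 groups was at least 2-fold, among genes with at least 20 UMIs in both groups together and a UMI in at least 5% of the nuclei of either group. The members held 3314617 UMIs in all, with a median of 5688 UMIs per nucleus (quartiles 3938 and 8310) and a median of 2643 genes. The Dlx group was deeper, with a median of 8030 UMIs (quartiles 4817 and 15230) and of 3377 genes. The other nuclei had a median of 5246.5 UMIs. The mitochondrial share was low everywhere, with medians of 0.0906% in the members and 0.100% in the Dlx group, and Malat1, a nuclear RNA, took 3.46% and 3.77% of the UMIs.

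The values that chose the members were close to their limits. The median member held 5 Gad UMIs and the highest held 22, and 126 of 463 members held exactly 3. Just outside the Gad limit, 163 nuclei had 2 Gad UMIs and 0 UMIs of the excluded genes. Just outside the other limit, 324 Gad nuclei had exactly 1 UMI of an excluded gene. Gad1 stood at 230 CPM in the members and 227 CPM in the Dlx group, and Gad2 at 540 and 502 CPM. Dlx6os1, the most abundant of the excluded genes, stood at 714 CPM in the Dlx group, in which 93.2% of nuclei had a UMI of it.

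The share of members changed with depth. Members were 21.8% of Gad nuclei with 2000 to under 3000 UMIs (16.8 to 27.5%), 24.6% with 3000 to under 5000 (21.2 to 28.3%), 19.8% with 5000 to under 10000 (17.3 to 22.4%) and 8.20% with 10000 or more (6.50 to 10.2%). The share was thus similar up to 10000 UMIs and lower in the deepest nuclei. When each nucleus of the Dlx group was reduced to 2000 UMIs, 21.7% of them were expected from the hypergeometric distribution to show 0 UMIs of the excluded genes, and 3.75% to show 0 of these and still at least 3 Gad UMIs. The number of members that are Dlx-positive neurons without a captured Dlx molecule was not determined.

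Nuclei with markers of endothelial cells or fibroblasts, which should not make GABA, were counted against the Gad limit for comparison. Of 128 nuclei with at least 10 UMIs of the endothelial genes Flt1, Cldn5, Pecam1 and Kdr, 32.0% held at least 3 Gad UMIs (24.1 to 40.9%), and of 194 nuclei with as many UMIs of the fibroblast collagens Col1a1, Col1a2 and Col3a1, 31.4% did (25.0 to 38.5%), close to the 38.3% of all nuclei of at least 2000 UMIs. These nuclei were deep, with medians of 11498.5 and 9216.5 UMIs and a highest count of 208500 in each class. Whether their Gad UMIs came from background RNA or from neurons in the same droplet was not tested. By depth, 0 of 19 such endothelial or fibroblast nuclei with 2000 to under 3000 UMIs passed the Gad limit, which allows a share of up to 15.8%, and 1 of 43 with 3000 to under 5000, 11 of 92 with 5000 to under 10000 and 83 of 144 with 10000 or more did. Few of these nuclei thus passed the Gad limit below 5000 UMIs, and most did above 10000. Of the 463 members 200 held under 5000 UMIs and 74 held 10000 or more, and 10 members were themselves endothelial- or fibroblast-marker nuclei. A doublet score (Scrublet) marked 42 members (9.07%) and 252 nuclei of the Dlx group (14%) among the 653 highest of the library.

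**Figure D1:**
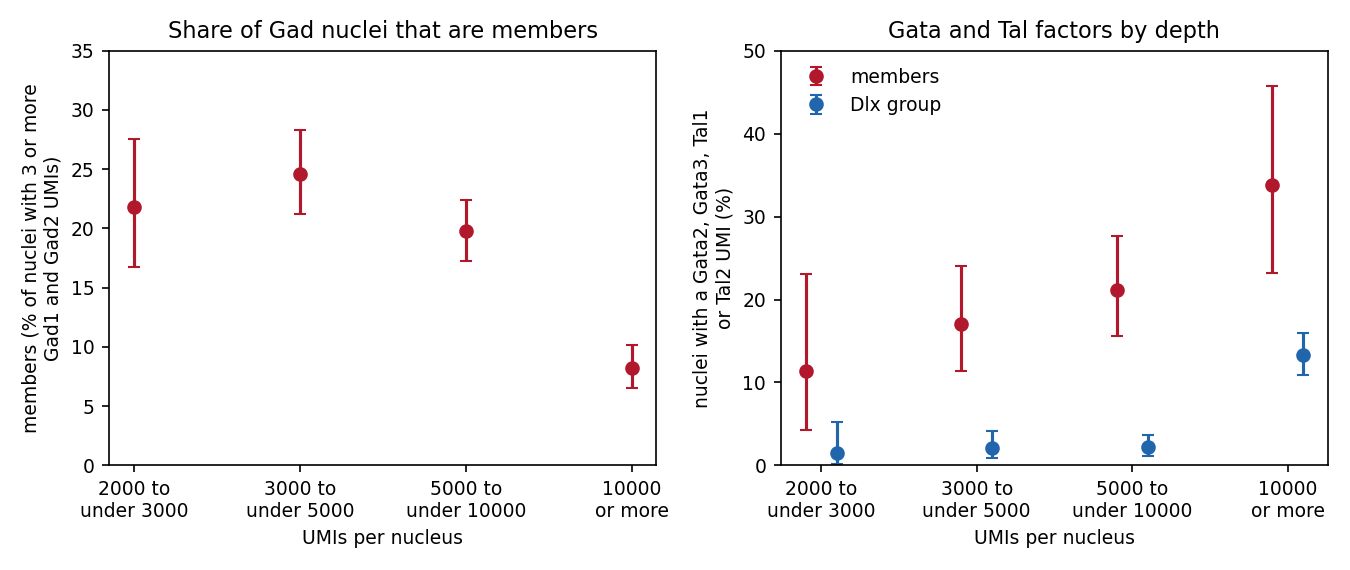
Share of Gad nuclei that are members (left) and share of nuclei with a UMI of Gata2, Gata3, Tal1 or Tal2 (right), both in percent, by UMIs per nucleus. Points are shares and bars exact 95% binomial intervals. The share of members is 21.8, 24.6 and 19.8% up to 10000 UMIs and 8.20% above. The Gata and Tal share is higher in the members than in the Dlx group in each range.

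Gata3, Sox14 and Tal1, transcription factors of midbrain and caudal diencephalic GABAergic neurons, were among the genes with the highest ratios of members over the Dlx group. Of 12857 genes that passed the filter, 35 (0.272%) were at least 2-fold higher in the members and 235 (1.83%, the 7 excluded genes among them) at least 2-fold lower. All 35 higher genes and 234 of the 235 lower ones had a counting interval of the ratio that left out 1. Against the other nuclei, 26 of 11815 genes (0.220%) were at least 2-fold higher and 200 (1.69%) at least 2-fold lower. The median gene lay at a log2 ratio of -0.04 in the first comparison and -0.08 in the second. The 5 highest ratios over the Dlx group belonged to Gm13256, Gata3, Sox14, Tal1 and Nkx2-2os, and these were also the 5 highest over the other nuclei.

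The promoters of Gata3 and Tal1, which are partners in GABAergic neurons of the midbrain, are shown since Gata factors bind GATA sequences and Tal factors, which are basic helix-loop-helix proteins, bind E-boxes. Both sequences are RefSeq windows on GRCm38.p6, from 250 bases before to 50 bases after an annotated start, written 5′ to 3′ along the gene, with capitals for GATA on either strand (read as GATA or TATC) and for the E-box CANNTG, which reads the same on both strands. Gata3 chr2:9878551-9878850 (minus strand, inside the annotated gene, which also has starts further upstream) and Tal1 chr4:115056176-115056475 (plus strand, the first of its 2 listed starts) read as follows.
Gata3: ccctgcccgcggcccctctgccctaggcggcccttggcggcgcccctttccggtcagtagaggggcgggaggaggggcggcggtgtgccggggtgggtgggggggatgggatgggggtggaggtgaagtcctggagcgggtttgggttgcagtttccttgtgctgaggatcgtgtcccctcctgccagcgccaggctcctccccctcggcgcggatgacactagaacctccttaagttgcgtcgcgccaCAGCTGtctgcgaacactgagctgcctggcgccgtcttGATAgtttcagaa
Tal1: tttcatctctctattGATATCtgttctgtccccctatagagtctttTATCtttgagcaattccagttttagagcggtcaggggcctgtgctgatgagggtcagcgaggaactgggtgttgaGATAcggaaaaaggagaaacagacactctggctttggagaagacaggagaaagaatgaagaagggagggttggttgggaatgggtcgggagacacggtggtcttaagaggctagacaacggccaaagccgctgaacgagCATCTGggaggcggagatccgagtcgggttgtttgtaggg
The Gata3 window holds 1 GATA match and 1 E-box, and the Tal1 window 4 GATA matches, 2 of which overlap as GATATC, and 1 E-box. The window of the second listed Tal1 start, chr4:115057561-115057860, holds 0 of either and is not printed. Of 32851 promoter windows of this length, 57.9% hold a GATA match and 72.3% an E-box, so a match is a description of the letters and no evidence of binding.

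Gata3, a zinc finger factor of midbrain and caudal diencephalic GABAergic neurons, stood at 56.4 CPM in the members (48.6 to 65.1), at 6.25 CPM in the Dlx group (5.29 to 7.34) and at 5.56 CPM in the other nuclei (4.94 to 6.22). The level in the members was 9.03-fold that of the Dlx group (7.24 to 11.3) and 10.2-fold that of the other nuclei (8.41 to 12.2). A Gata3 UMI was found in 76 of 463 members (16.4%) and in 71 of 1801 nuclei of the Dlx group (3.94%), and 47 of the 76 and 45 of the 71 held 2 or more. In endothelial- and fibroblast-marker nuclei, which were deeper, 8.59% and 5.67% had a Gata3 UMI. After thinning every nucleus to 2000 UMIs, Gata3 was found in 8.64% of members (6.24 to 11.6%), 0.999% of the Dlx group (0.593 to 1.57%), 2.34% of endothelial-marker nuclei (0.486 to 6.70%) and 1.03% of fibroblast-marker nuclei (0.125 to 3.67%). Gata3 lies at chr2:9857078-9890034 on the minus strand of GRCm38 (GENCODE vM21).

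Tal1, which acts beside Gata2 and Gata3, stood at 18.4 CPM in the members (14.1 to 23.6) and 3.44 CPM in the Dlx group (2.74 to 4.27), a ratio of 5.35 (3.78 to 7.55). A Tal1 UMI was found in 43 members (9.29%) and in 57 nuclei of the Dlx group (3.16%). Tal1 is also a gene of endothelial and blood cells, and 49.2% of the endothelial-marker nuclei had a UMI of it, at 38.8 CPM. Over all members the endothelial markers were not higher, with Flt1 at 18.7 CPM against 29.6 CPM in the Dlx group and Cldn5 at 18.4 against 18.8 CPM. Within the 4 library clusters that held most members, Cldn5 and Kdr had ratios of 1.94 and 2.47. Flt1 and Pecam1 had ratios of 0.898 there, and all these intervals include 1. Whether endothelial RNA contributed to the Tal1 UMIs was not tested. Sox14, a factor of thalamic and pretectal GABAergic neurons, stood at 13.9 CPM in the members (10.2 to 18.5), 1.68 CPM in the Dlx group (1.2 to 2.28) and 2.75 CPM in the other nuclei, with UMIs in 30 members and 29 nuclei of the Dlx group. In the endothelial-marker nuclei 1 of 128 had a Sox14 UMI.

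The other factors of the list of 12 midbrain and diencephalic GABAergic factors were fewer in UMIs or did not differ by 2-fold. Gata2, which starts the GABAergic programme of midbrain precursors, was under the filter, with 24 UMIs in 17 members (7.24 CPM, 4.64 to 10.8) and 26 UMIs in 20 nuclei of the Dlx group (1.09 CPM, 0.712 to 1.60). Nkx2-2, a homeodomain factor of the rostral thalamic border and ventral midbrain, stood at 13.3 CPM in the members (9.65 to 17.8) and 4.24 CPM in the Dlx group (3.45 to 5.15). Six3 stood at 44.0 CPM against 28.2 CPM, a ratio of 1.56 (1.30 to 1.87). Otx1, Otx2 and Zfpm2, a cofactor of Gata proteins, had ratios of 1.11, 0.860 and 1.09. Zfpm1 was under the filter like Gata2, with 27 UMIs in the members and 96 in the Dlx group, a ratio of 2.02 (1.27 to 3.13). Tal2 and Helt, both early factors of midbrain GABAergic precursors, had 1 UMI each in the members, and no fold is given for them. Of the 12 genes 8 passed the filter, and Gata3, Sox14, Tal1 and Nkx2-2 were at least 2-fold higher, beside 0.272% of all genes. These 4 passed the limit of 5% of nuclei in the members alone, so their count is a description and no support. The list was chosen with earlier results of these data known.

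**Figure D2:**
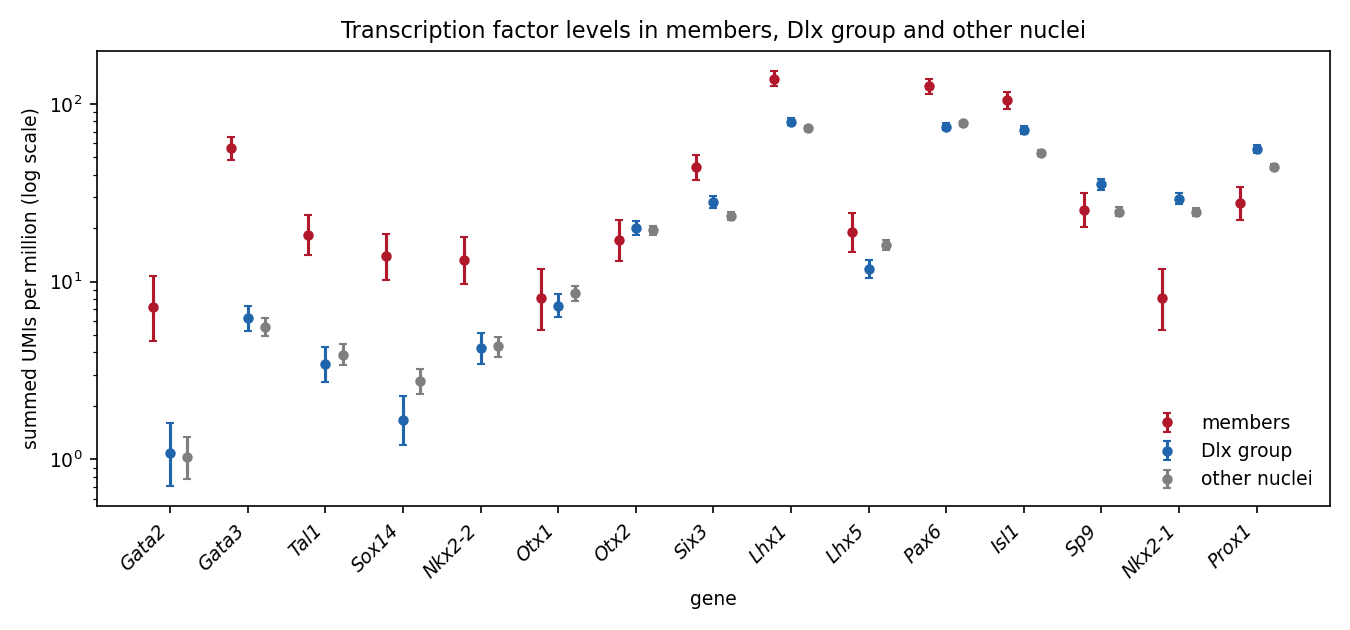
Levels of 15 transcription factors in the members, the Dlx group and the other nuclei, in CPM on a log axis, with exact 95% Poisson intervals as bars. Gata3 stands at 56.4 in the members and 6.25 in the Dlx group. Nkx2-1 lies lower in the members, at 8.15, than in the Dlx group, at 29.4.

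Long RNAs annotated near or some distance from these factors are given as a description, since Gm13256, Nkx2-2os and Gm14114 likewise passed the limit of 5% of nuclei in the members alone, as did Slc30a3, Lamp5 and Col19a1 below. Gm13256, an antisense RNA at chr2:9877256-9878869 that overlaps Gata3 and the promoter window printed above, had 26 UMIs in the members (7.84 CPM) and 20 in the Dlx group (0.839 CPM), a ratio of 9.35 (5.02 to 17.7). Nkx2-2os overlaps Nkx2-2 on the other strand and stood at 14.8 CPM against 3.56 CPM, and Gm14114, 337814 bases from Nkx2-2, at 10.9 against 3.48 CPM. Lhx1os, which lies 125 bases from Lhx1 on the opposite strand, stood at 85.7 CPM in the members and 33.4 CPM in the Dlx group. Among the other genes of the 15 highest ratios, Slc30a3, which encodes a zinc transporter of synaptic vesicles, Lamp5, Cbln4, a cerebellin gene, and the collagen gene Col19a1 had ratios of 3.11, 2.98, 2.78 and 2.48. The sources used here do not give whether reads were counted by strand, so UMIs of Gm13256 and Gata3, and of Nkx2-2os and Nkx2-2, cannot be told apart with certainty.

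Gata and Tal factors were found more often in the members at every depth. Any of Gata2, Gata3, Tal1 and Tal2 was detected in 96 members (20.7%, 17.1 to 24.7%) and in 118 nuclei of the Dlx group (6.55%, 5.45 to 7.79%), although the Dlx group was deeper. By range of UMIs the members with such a UMI were 6 of 53, 25 of 147, 40 of 189 and 25 of 74, and those of the Dlx group 2 of 137, 7 of 342, 13 of 598 and 96 of 724. In the Dlx group 96 of the 118 positive nuclei held 10000 UMIs or more, against 25 of the 96 positive members. In the range from 2000 to under 3000 UMIs the intervals of the 2 groups overlapped (4.27 to 23.0% and 0.177 to 5.17%), and in the 3 deeper ranges they did not. Among the 434 Gad nuclei in neither group, 23 (5.30%) had such a UMI. Thinned to 2000 UMIs, the shares were 12.3% of members (9.46 to 15.7%) and 1.61% of the Dlx group (1.08 to 2.30%).

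Within the members the factors were found together. Of the 76 members with a Gata3 UMI, 29 had a Tal1 UMI, against 14 of the 387 without Gata3 (3.62%), and 15 had a Sox14 UMI. Slc32a1, the vesicular GABA transporter, was detected in 42.1% of the Gata3-positive members and in 18.6% of the others. Lhx1 or Lhx5 was detected in 67.1% against 37.7%, and Tcf7l2, a Wnt effector of the thalamus and midbrain, in 75% against 27.9%. Isl1, a LIM factor of hypothalamic, prethalamic and striatal neurons, was detected in 1 of the 76 and in 36.4% of the others. The Gata3-positive members had a median of 6898 UMIs and the others 5383, and the part of depth in the higher shares was not tested.

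Nuclei picked by these factors alone are given as a description. The factors were already seen to be high in the members, and Gad and excluded UMIs are the values of the rule. The shares below are thus tied to the choice of members and are no support. At least 3 UMIs summed over Gata2, Gata3, Tal1 and Sox14 were found in 129 nuclei, a number chosen after the values above were seen. Of these, 96 (74.4%) passed the Gad limit, beside 38.3% of all nuclei of at least 2000 UMIs. Of the 129, 48 were members and 39 belonged to the Dlx group. Among the 66 of them with under 10000 UMIs, 54 (81.8%, 70.4 to 90.2%) had 0 UMIs of the excluded genes. Among the 63 with more, 20 (31.7%, 20.6 to 44.7%) did. The same share over all nuclei of these depths is not given here. These shares are therefore not shown to be particular to the picked nuclei.

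The 15 genes with the lowest ratios held between 3 and 144 UMIs in the members. The 2 lowest, Gm29266 and AI606473, had 5 UMIs each in the members (1.51 CPM) and stood at 17.4 and 16.5 CPM in the Dlx group. The 15 lowest also held Rspo2, which encodes a Wnt agonist, at 9.96 against 70.5 CPM, Ackr3, a chemokine receptor of migrating interneurons, at 6.64 against 31.2 CPM, and Sfta3-ps, at 37.1 against 244 CPM. Sox1ot, the transcript that overlaps Sox1, stood at 43.4 against 167 CPM. Cdc20, Mybl2, Dlgap5 and Cks1b, genes of mitosis and its control, stood at 0.905, 1.21, 5.43 and 1.81 CPM in the members against 5.75, 6.42, 21.9 and 7.21 CPM. Of the 15 genes, Sfta3-ps and Sox1ot alone reached 5% of nuclei in both groups. The others, these 4 mitosis genes among them, passed that limit in the Dlx group alone, so their low levels are a description and no support. Within the 4 library clusters that held most members, Sfta3-ps and Sox1ot were less than 2-fold lower. The rule removed nuclei with Dlx, Lhx6 or Lhx8 UMIs, so low levels of genes found in the same nuclei are not independent of the choice of members.

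**Figure D3:**
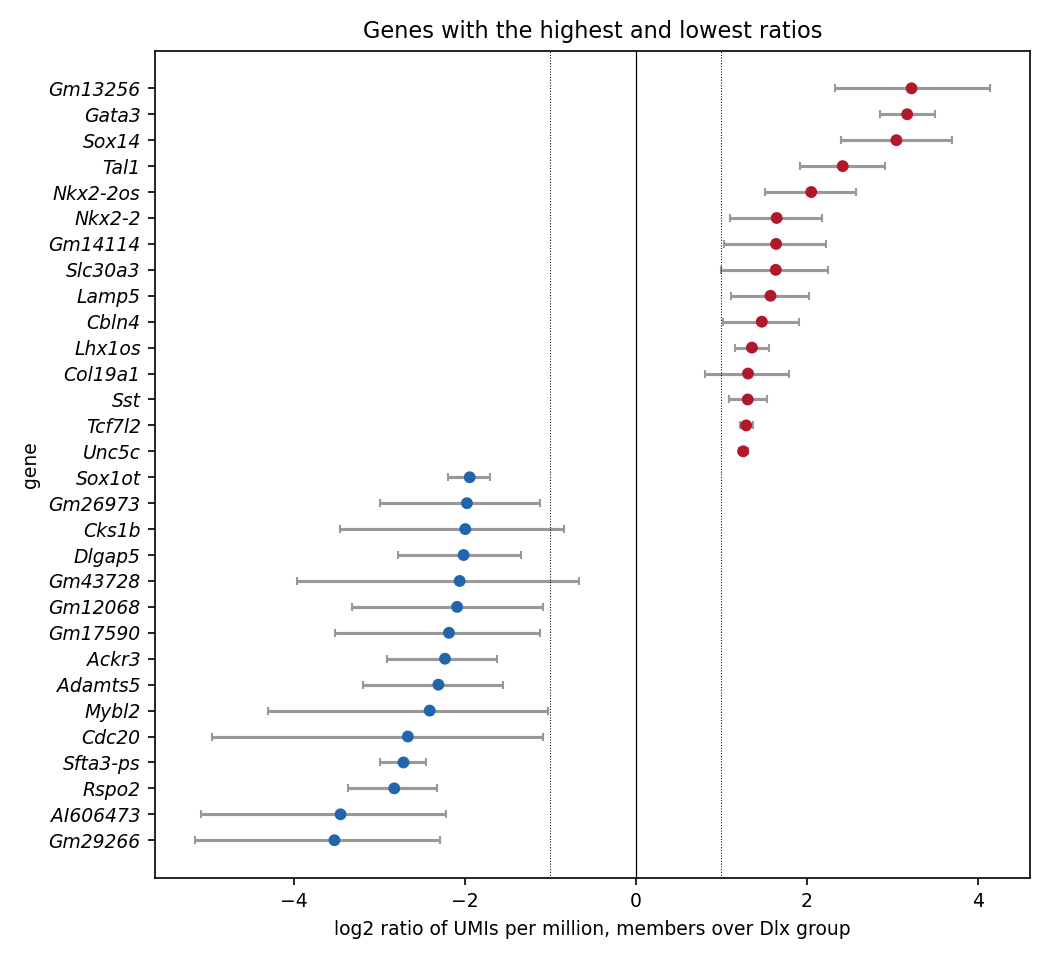
The 15 genes with the highest and the 15 with the lowest log2 CPM ratio of the members over the Dlx group, genes of the rule left out, with 95% counting intervals as bars and dotted lines at 2-fold. Gata3 lies at 3.17 and Gm13256 at 3.23, and Gm29266 at -3.52.

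Several telencephalic genes were lower in the members. Of 14 telencephalic GABAergic genes 11 passed the filter, 4 of which were at least 2-fold lower and 0 at least 2-fold higher, beside 1.83% and 0.272% of all genes tested, with a median log2 ratio of -0.48. Nkx2-1, of the medial ganglionic eminence and hypothalamus, stood at 8.15 against 29.4 CPM, Erbb4, the neuregulin receptor of interneurons, at 1328 against 2878 CPM, and Prox1 at 27.8 against 55.9 CPM. Zeb2 was 1.87-fold lower. Nr2f1, Nr2f2 and Maf had ratios between 1.03 and 1.21 over all members. Adarb2 had a ratio of 0.920 over all members. Within the 4 library clusters that held most members, Adarb2 was instead past 2-fold higher, with a ratio of 2.05 (1.93 to 2.17). Maf was also higher there, with a ratio of 2.85 (1.98 to 4.11). Nr2f2 was lower, with 0.684 (0.595 to 0.783), and Erbb4, at 0.623 (0.595 to 0.652), was under 2-fold. Nkx2-1 and Prox1 stayed past 2-fold lower there, with ratios of 0.281 and 0.320.

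Of the 8 listed factors of the prethalamus and Dlx lineages 7 passed the filter, 1 of which was at least 2-fold lower and 0 at least 2-fold higher, beside 1.83% and 0.272% of all genes tested. Pax6, a paired homeodomain factor, stood at 126 against 74.6 CPM (ratio 1.68, 1.51 to 1.87), and Isl1 at 105 against 71.3 CPM (1.47, 1.31 to 1.65). Isl1 was found in 18.1% of members and 13.5% of the Dlx group thinned to 2000 UMIs, against 3.91% and 3.09% of the endothelial- and fibroblast-marker nuclei. Meis2 had a ratio of 1.09. Lhx1, a LIM factor of many GABAergic and glutamatergic neurons of the caudal brain, stood at 139 CPM in the members (127 to 152) and 79.3 CPM in the Dlx group (75.7 to 82.9), and Lhx5 at 19.0 against 11.8 CPM. Thinned to 2000 UMIs, Lhx1 was detected in 19.7% of members (16.1 to 23.6%) and 11.9% of the Dlx group (10.4 to 13.5%), and in 3.91% of endothelial-marker nuclei.

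Factors of the hindbrain and cerebellum other than Lhx1 and Lhx5 had few UMIs. Ptf1a, which specifies cerebellar GABAergic neurons, Skor2, a Purkinje cell factor, Pax8 and Tfap2a had 0 UMIs in the 463 members, which allows a share of nuclei with a UMI of up to 0.648% each and does not show that the genes were not expressed. Ptf1a had 0 UMIs in the other nuclei too. Pax2 was found in 6 members (1.30%, 0.477 to 2.80%), against 0.781% and 1.03% of the endothelial- and fibroblast-marker nuclei. Pax2 and En1, a factor of the midbrain and rostral hindbrain, were under the filter but higher than in the Dlx group. Pax2 stood at 3.92 against 1.01 CPM, with 13 and 24 UMIs and a ratio of 3.90 (1.82 to 7.96). Its UMIs lay in the 6 members and in 15 nuclei of the Dlx group (0.833%, 0.467 to 1.37%), shares whose intervals overlap. En1 stood at 4.53 against 1.26 CPM, with 15 and 30 UMIs and a ratio of 3.60 (1.80 to 6.90), but its UMIs lay in only 6 members (1.30%) and 16 nuclei of the Dlx group (0.888%), with up to 5 in 1 member. Hox genes mark the hindbrain and spinal cord, and 16 of the 19 listed had 0 UMIs in the members, with a UMI of the other 3 in 3 members (0.648%, 0.134 to 1.88%) against 0.888% of the Dlx group. None of the 19 passed the filter.

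The tested genes of GABA handling and the vesicular glutamate transporter Slc17a6 differed by less than 2-fold from the Dlx group. Slc32a1 stood at 37.1 CPM in the members (30.8 to 44.3) and 31.4 CPM in the Dlx group (29.2 to 33.7), and was detected in 22.5% and 29.8% of nuclei, or 7.78% and 7.22% when thinned to 2000 UMIs. In endothelial- and fibroblast-marker nuclei the thinned shares were 2.34% and 2.06%. Abat, which breaks down GABA, had a ratio of 0.634 (0.538 to 0.744). Slc17a6, the vesicular glutamate transporter VGLUT2, stood at 74.8 CPM in the members, 77.3 CPM in the Dlx group and 121 CPM in the other nuclei. Within the 4 library clusters that held most members, it stood at 13.6 CPM in the members and 26.9 CPM in the Dlx group (ratio 0.504, 0.295 to 0.821). A Slc17a6 UMI was found in 89 members (19.2%, 15.7 to 23.1%) and in 30.5% and 28.4% of the endothelial- and fibroblast-marker nuclei, which were deeper. Thinned to 2000 UMIs these shares were 7.56%, 7.03% and 8.76%. Over all members Slc17a6 was thus found about as often as in the endothelial- and fibroblast-marker nuclei. Its share ranged from 0 to 73.7% between the sub-clusters of the members. Slc6a5, the glycine transporter of inhibitory glycinergic neurons, was under the filter, with 42 UMIs in 20 members (12.7 CPM, 9.13 to 17.1) and 55 UMIs in 26 nuclei of the Dlx group (2.31 CPM, 1.74 to 3.00). The share of members was 4.32%, against 1.56% and 0.515% of the endothelial- and fibroblast-marker nuclei. Of the 20 members with Slc6a5, 12 also had a UMI of Gata2, Gata3, Tal1 or Tal2.

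Other lists of neuronal genes held few genes past 2-fold. None of the 11 tested GABA-A receptor subunits passed 2-fold in either direction, beside 0.272% higher and 1.83% lower of all genes tested, and a list this short tells little beside these shares. Their median log2 ratio was 0.20. The 10 general neuronal genes, such as Tubb3 and Map2, had ratios near 1, with a median log2 ratio of 0.09. Of 21 neuropeptides 7 passed the filter and Sst, somatostatin, alone was past 2-fold, beside the same shares of all genes, at 67.9 CPM in the members (59.3 to 77.4) and 27.4 CPM in the Dlx group (25.3 to 29.6). Tcf7l2 stood at 553 CPM in the members and 226 CPM in the Dlx group, with a UMI in 35.6% and 35% of nuclei. Thinned to 2000 UMIs these shares were 28.3% and 16.8%, and Tcf7l2 was also found in 51.6% of the endothelial-marker nuclei. The netrin receptor Unc5c stood at 1188 against 498 CPM. Col25a1, a marker given for these nuclei, stood at 190 CPM in the members (175 to 205) and 143 CPM in the Dlx group (138 to 147), but was detected in fewer nuclei, 25.9% against 33.6%. Its share was 28.1% and 25.3% in the endothelial- and fibroblast-marker nuclei, so that a single UMI of Col25a1 marks no nucleus as a member. Within the 4 library clusters that held most members, Col25a1 was instead lower in the members, at 192 against 263 CPM (ratio 0.730, 0.637 to 0.834).

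Factors of other neuron types gave few differences. Of the 4 tested hypothalamic factors Nkx2-1 alone passed 2-fold (ratio 0.277), of the 5 tested Purkinje cell genes Calb1 alone (0.490), and of the 6 tested thalamic glutamatergic genes Tcf7l2 (2.45) and Prox1 (0.497). None of the 6 tested striatal, 9 cortical excitatory, 4 midbrain and pretectal glutamatergic, 3 Cajal-Retzius and 2 monoamine or acetylcholine neuron genes did. Bcl11b, of the striatal list, had a ratio of 0.726 (0.664 to 0.792) over all members. Within the 4 library clusters that held most members, it was instead higher, at 2.03 (1.70 to 2.42). Over all genes tested 0.272% were past 2-fold higher and 1.83% lower, and lists this short tell little beside these shares. The median log2 ratios of the striatal and the cortical list were 0.11 and -0.30.

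Some markers of dividing cells, choroid plexus and erythroid cells were lower than in the Dlx group. Of 10 progenitor and cell cycle genes 4 were at least 2-fold lower, Sox2, Mki67 and Top2a among them, and 0 at least 2-fold higher, beside 1.83% and 0.272% of all genes tested, with Top2a at 71.5 against 153 CPM. Within the 4 library clusters that held most members, Sox2 and Top2a were not past 2-fold, with ratios of 0.807 (0.438 to 1.42) and 0.652 (0.334 to 1.19), both with intervals that include 1. Mki67 stayed past 2-fold lower there, with 4 against 31 UMIs and a ratio of 0.319 (0.0817 to 0.901). The 4 endothelial genes summed to 56.7 CPM against 75.7 CPM, the 5 fibroblast genes to 127 against 106 CPM and the 5 macrophage genes to 105 against 82.6 CPM, and none of their tested genes passed 2-fold. The most abundant of them were Flt1, Col3a1, at 53.7 against 45.4 CPM, and Cx3cr1, at 67.0 against 59.6 CPM. The choroid plexus gene Ttr stood at 405 against 1255 CPM, yet had a UMI in 78.6% of members and 81.1% of the Dlx group, and the 6 erythroid genes summed to 280 against 495 CPM, with Hbb-y and Hba-x past 2-fold lower, Hbb-bs the most abundant, at 88.7 against 105 CPM, and Hbb-bt at a ratio of 1.00 (0.817 to 1.21). Within the same 4 clusters, Ttr, Hbb-y and Hbb-bs had the opposite direction, with ratios of 1.29 (1.15 to 1.44), 1.79 (1.37 to 2.32) and 1.31 (1.04 to 1.64). All the defining markers of these types were above 0 in the members, and their part in the results was not tested.

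Clustered on genes other than those of the rule, the members fell into 8 sub-clusters that differed in more than the factors above. With 1 library and clusters drawn from the same nuclei, the leading genes describe each sub-cluster and are not tested. The sub-clusters are numbered from 0 by size and were given no cell type name.

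Sub-cluster 3, of 63 nuclei (13.6% of the members), carried most of the Gata and Sox14 signal. Its 5 leading genes against the other members were Sox14, Gm14114, Gata3, Nkx2-2 and the serotonin receptor gene Htr7. It held 103 of the 187 Gata3 UMIs of the members, 49.2% of the Tal1 UMIs and 71.7% of the Sox14 UMIs. Gata3 was detected in 42 of its 63 nuclei, Tal1 in 22 and Sox14 in 20, and any of Gata2, Gata3, Tal1 and Tal2 in 49 (77.8%), against 47 of the 400 other members (11.8%). Tcf7l2 stood at 2436 CPM, with a UMI in 90.5% of nuclei, and Reln at 1038 CPM. Slc32a1 was detected in 34.9% and Slc17a6 in 4.76% of its nuclei, and Isl1 in 3.17%. Its median depth of 5483 UMIs was close to that of all members, 3 of its nuclei were marked by the doublet score, and 52 of the 63 fell in 1 cluster of the whole library.

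Sub-clusters 4, 5 and 6 had no Gata3 UMI and lay almost wholly in single clusters of the library. Sub-cluster 4, of 47 nuclei, led with Frmpd1, Gm4128, Sema3e, Fign and Kcnmb2, and had Isl1 in 87.2% and Meis2 in 91.5% of nuclei with Erbb4 at 7487 CPM. Sub-cluster 5, of 42 nuclei, led with Cdh20, Zic4, 4930419G24Rik, Cntn6 and Sorcs3, had Reln in 92.9% of nuclei, and held Col25a1 at 755 CPM in 57.1% of nuclei, the highest level and share of Col25a1 of the 8. Sub-cluster 6, of 32 nuclei, had Fndc1, Klhl14, Gm14015 and Gm15689 among its leading genes, and had Meis2 in 100% and Pax6 in 84.4% of nuclei, with Lhx1 in 65.6% and Unc5c at 5126 CPM. Gata3 and Sox14 had 0 UMIs in all 3 of these sub-clusters, which allows shares of nuclei with a UMI of up to 6.38, 7.14 and 9.38%, and Slc17a6 was detected in 0, 2.38 and 3.13% of their nuclei. In the endothelial-marker nuclei, which were deeper, Isl1 was found in 22.7%, Meis2 in 46.9%, Reln in 35.2%, Pax6 in 32.0% and Lhx1 in 20.3% of nuclei. The doublet score marked 0, 1 and 0 of their nuclei, and 45 of 47, 42 of 42 and 31 of 32 fell in single clusters of the whole library.

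**Figure D4:**
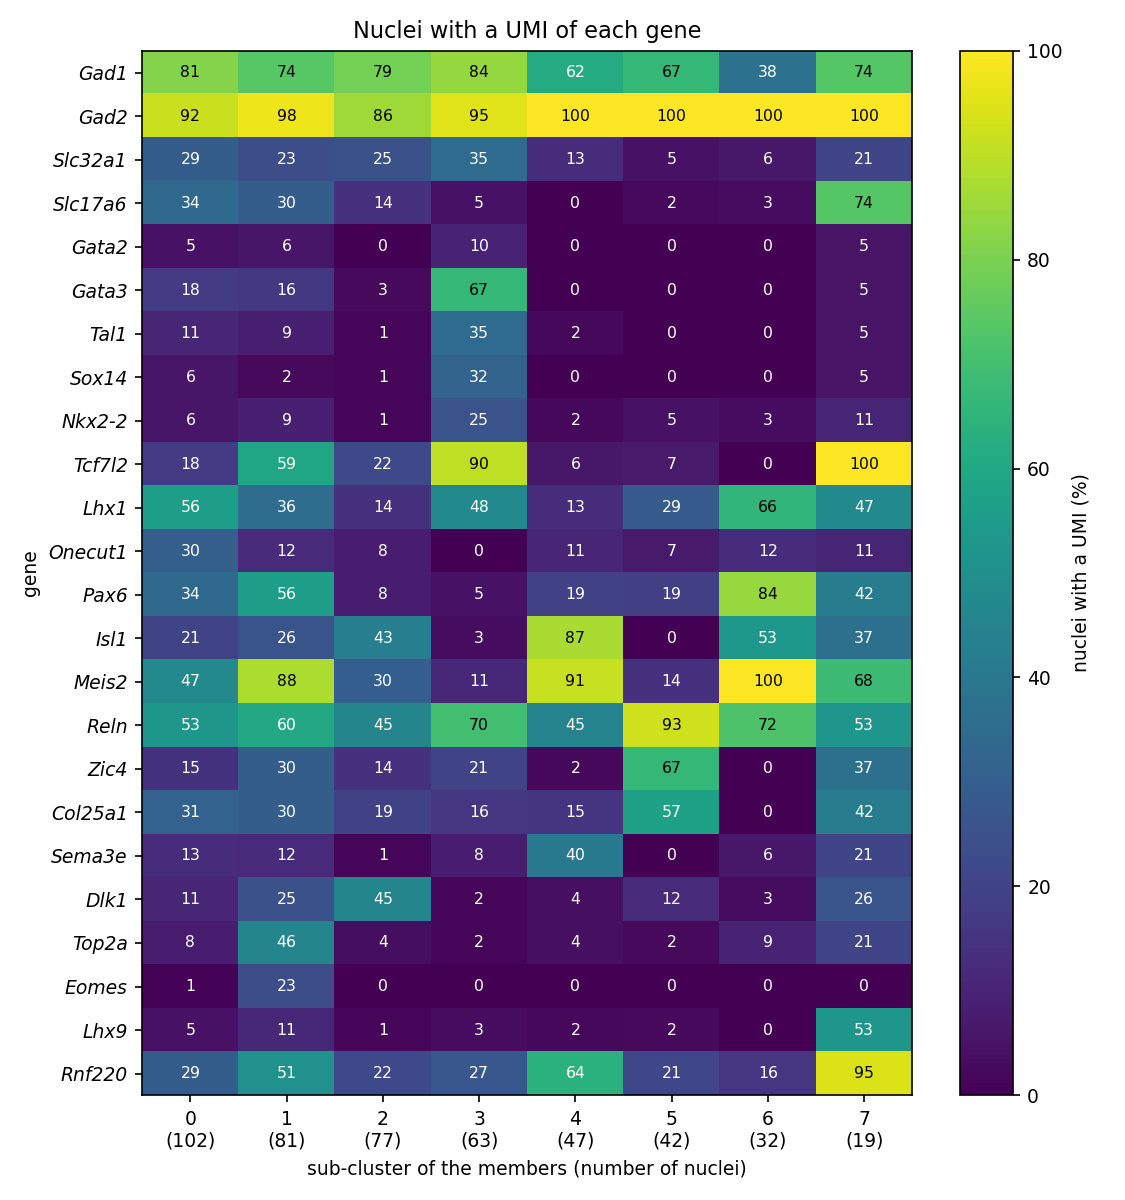
Share of nuclei with a UMI of 24 genes, in percent, in the 8 sub-clusters of the members, with the number of nuclei under each. Gata3, Tal1 and Sox14 peak in sub-cluster 3 at 66.7, 34.9 and 31.7%, Isl1 in sub-cluster 4 at 87.2% and Slc17a6 in sub-cluster 7 at 73.7%.

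Sub-clusters 0 and 2 were more mixed. Sub-cluster 0, of 102 nuclei, led with Gm30382, Gm5149, Onecut1, Gm34299 and 4930473D10Rik, had Lhx1 in 55.9% of nuclei, Gata3 in 17.6%, Slc6a5 in 10.8% and Slc17a6 in 34.3%, and its nuclei were spread over 12 clusters of the library. Sub-cluster 2, of 77 nuclei with a median of 4142 UMIs, led with Dlk1, Peg10, Ecel1, Sst and Magel2. Dlk1, Peg10 and Magel2 are imprinted genes expressed in hypothalamic neurons, among others. Isl1 was detected in 42.9% of its nuclei.

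Sub-clusters 1 and 7 went against the label of GABAergic neurons. Sub-cluster 1, of 81 nuclei, led with the mitosis genes Kif18a, Cdca2 and Ttk, with Gm29260 and with Wwtr1. Top2a was detected in 45.7% of its nuclei, Mki67 in 32.1%, Slc1a3, a glial glutamate transporter gene, in 43.2% and Eomes, a factor of cortical intermediate progenitors, in 23.5%. Its nuclei were deep, with a median of 9163 UMIs, and the doublet score marked 26 of the 81 (32.1%). Sub-cluster 7, of 19 nuclei, led with Gm12828, Gm13791, Epha8, Gbx2 and Rnf220, and had Slc17a6 in 73.7% and Lhx9 in 52.6% of nuclei, with a median of 8667 UMIs and 2 nuclei marked. Gbx2 and Lhx9 are factors of thalamic glutamatergic neurons. Together they hold 100 of the 463 members, which are called by the rule rather than by a cell type.

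In the clustering of the whole library, 284 of the members (61.3%) fell in 4 of 22 clusters. The other 179 were spread over all 18 remaining clusters, with 2 to 26 in each. The 4 clusters held 126, 60, 50 and 48 members and had Ecel1, Col25a1, Gfra2 and Gm4128 as their leading genes. They held 27.3% of the Dlx group, which was otherwise mostly in clusters led by Lhx6 and Dlx6os1, by AI606473 and Lhx8, or by progenitor genes. Members were 32.2% (27.6 to 37.1%), 26.9% (21.2 to 33.2%), 28.7% (22.1 to 36.1%) and 25.4% (19.4 to 32.2%) of the Gad nuclei of these 4 clusters. The rule excludes Lhx6 and Lhx8, so few members in the clusters led by these genes follow from the choice. Each of the 4 clusters thus held both groups, and the members in it were the shallower, with medians of 4919.5, 4547.5, 5506 and 4175 UMIs against 5325, 6273.5, 9125 and 6180.

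**Figure D5:**
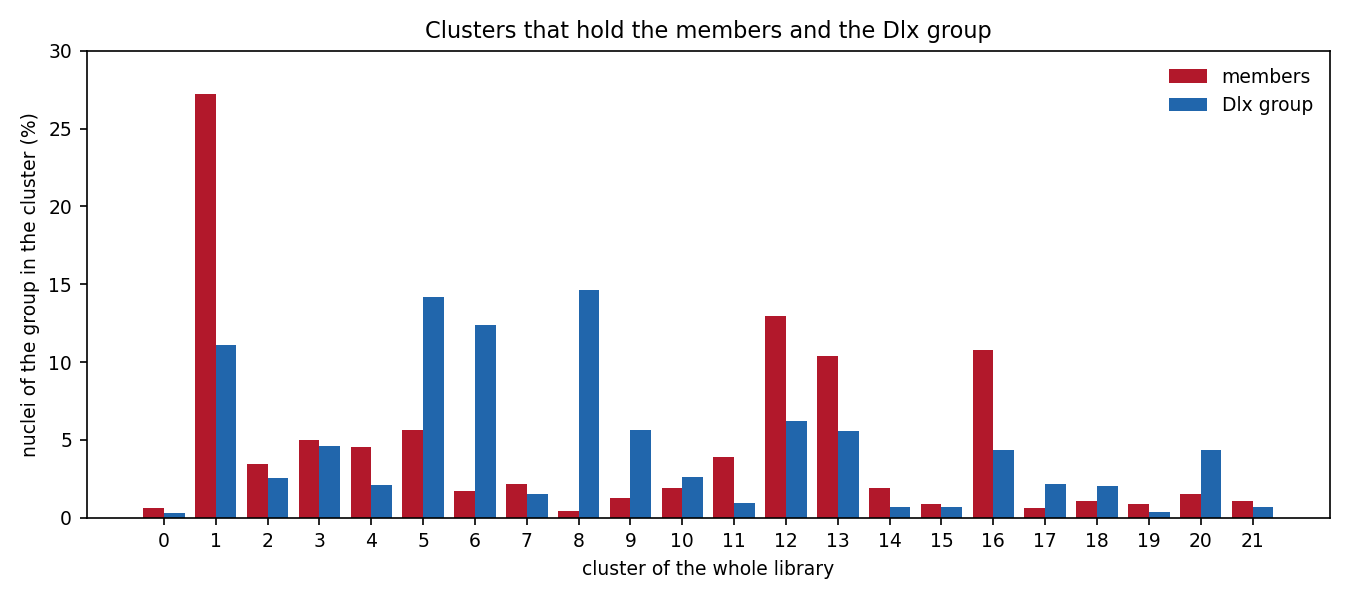
Share of the members and of the Dlx group, in percent of each group, in each of the 22 clusters of the whole library. Clusters 1, 12, 16 and 13 hold 27.2, 13.0, 10.8 and 10.4% of the members. Cluster 8 is led by Lhx6, a gene of the rule, so its low share of the members is fixed by the choice.

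Within these 4 clusters Gata3 and Tal1 were also higher in the members, with ratios whose intervals overlap those over all members. Gata3 stood at 90.3 CPM in their 284 members and 6.32 CPM in their 492 nuclei of the Dlx group, a ratio of 14.3 (9.13 to 23.3), with a UMI in 17.6% and 1.83% of nuclei. Tal1 had 36 UMIs against 6, a ratio of 14.8 (6.18 to 43.0). Sox14 had 28 UMIs against 1, and Gata2 14 against 1. Tcf7l2 stood at 556 against 68.7 CPM. Isl1 and Slc32a1 had ratios of 1.05 (0.895 to 1.24) and 0.977 (0.730 to 1.30) there, Lhx1 of 1.22 (1.06 to 1.41) and Otx2 of 2.17 (1.27 to 3.69), against 0.860 over all members. Slc17a6 was detected in 4.58% of these members, against 19.2% of all, and in 8.33% of the nuclei of the Dlx group in these clusters. This restriction to 4 clusters was chosen after the values were seen.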

How the data were processed

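Slide-tags single-nucleus RNA sequencing of an E14 mouse brain section was analysed (1 library). The authors aligned reads to mm10 and deposited whole-number UMI counts for each gene in each barcode. The file header gives Cell Ranger 7.0.1, whereas the methods name an earlier version and background removal with CellBender for the embryo. The counts were taken as not normalized. Whether background UMIs had been removed, which bears on the shares in endothelial- and fibroblast-marker nuclei, could not be settled. No column belonged to a sample outside the series.

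Members and comparison groups were set by UMI limits in Python 3.11.15 (numpy 2.4.6, scipy 1.17.1). The members and gene lists were chosen with earlier results of these data known. Summed UMIs have exact Poisson intervals, shares exact binomial (Clopper-Pearson) intervals, and CPM ratios intervals from the exact binomial distribution of the UMIs of 1 group given those of both. A count of 0 was taken to allow 3, which is slightly below the exact interval in small groups. Thinning drew 2000 UMIs per nucleus without replacement. The fold table was tested on simulated data. Clusters were made with Seurat 5.3.0 (R 4.3.3) from counts scaled to 10000, 2000 variable genes, 30 principal components and resolution 0.8 for the library, and 1000 variable genes, 20 components and the same resolution for the members, without the genes of the rule. Scrublet (scanpy 1.11.5, expected rate 0.8% per 1000 nuclei) marked 4 of 9036 nuclei by its automatic threshold and was judged not to have worked, so the 653 highest scores were marked. Marked nuclei were kept. Named genes were those of the lists, the 15 highest and 15 lowest ratios over the Dlx group, the 10 highest over the other nuclei, and 5 leading genes per sub-cluster with a UMI in at least 20% of its nuclei, without genes of the rule, mitochondrial and Y genes. Some genes that these rules name are not reported here. Genes outside these rules are named from the tables of clusters. Gene positions are from GENCODE vM21 (GRCm38). Alternatives varied the limits on UMIs, Gad and excluded genes, the definition of the Dlx group, doublets, mitochondrial share, weighting of nuclei, filter, fold, thinning and resolution.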

Additional observations from a re-analysis of the deposited data

How the results depend on the processing

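No paired analysis was possible because the 2 libraries are of different tissues and no test was made between them. Ratios over the Dlx group were recomputed for 61 genes, the 15 highest, the 15 lowest and listed genes picked for the text. The 46 past 2-fold gave 457 values under the alternatives, of which 454 kept their direction and 424 of these stayed past 2-fold. The other 3 were those of Ttr, Hbb-y and Hba-x within the 4 library clusters, with log2 ratios of 0.37, 0.84 and 1.02 against -1.63, -1.43 and -1.78 as reported. With each nucleus counted alike the log2 ratios of Ttr and Hbb-y were -0.61 and -0.67. The log2 ratio of Gata3 ranged from 2.52 to 3.84, that of Tal1 from 1.81 to 3.89 and that of Sox14 from 2.58 to 6.11, each lowest with 1 UMI of the excluded genes allowed and highest within the 4 library clusters. The log2 ratio of Tcf7l2 was 0.87 with 1 excluded UMI allowed, and those of Lhx1os and Unc5c were 0.81 and 0.87 within the 4 clusters, all under 2-fold. Also under 2-fold within the 4 clusters were Erbb4 (-0.68), Top2a (-0.62), Sox2 (-0.31), Calb1 (-0.83) and, of the 15 lowest, Rspo2, Sfta3-ps, Cdc20, Mybl2, Gm12068, Gm43728, Gm26973 and Sox1ot (-0.90 to -0.28). Top2a, Sox2, Mki67, Prox1, Calb1 and Erbb4 fell just under 2-fold with another UMI limit, another Gad limit or 1 excluded UMI (-0.99 to -0.85). Col25a1, at 0.41 as reported and under 2-fold, was -0.45 within the 4 clusters. The causes were not tested.

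The numbers moved with the limits. Of the 463 members, 263 remained with at least 5000 UMIs (14.2% of Gad nuclei), 250 with at least 5 Gad UMIs (13.8%) and 284 within the 4 clusters (29.1%), whereas allowing 1 excluded UMI gave 787 (29.2%) and 2 Gad UMIs gave 19.5% of Gad nuclei. Genes at least 2-fold higher than in the Dlx group, 35 as reported, were 73 with 5000 UMIs, 103 with 5 Gad UMIs, 15 with 1 excluded UMI, 83 with each nucleus counted alike, 313 without the filter on nuclei, 323 at 1.5-fold and 76 within the 4 clusters. Genes lower, 235 as reported, were 665 with 5 Gad UMIs, 1001 without the filter and 749 at 1.5-fold. Against the other nuclei the higher genes, 26 as reported, were 43 with 5000 UMIs, 70 with 5 Gad UMIs, 50 with each nucleus counted alike, 648 without the filter and 191 at 1.5-fold. The lower genes, 200 as reported, were 557 with 5 Gad UMIs, 325 without the doublet-scored nuclei, 483 with each nucleus counted alike, 1439 without the filter, 801 at 1.5-fold and 84 within the 4 clusters. The Gata and Tal share, 20.7% as reported, was 14.5% with 1 excluded UMI and 12.3% thinned. The Slc17a6 share, 19.2%, was 32.3% with 5000 UMIs, 7.56% thinned and 4.58% within the 4 clusters. The members fell into 6 sub-clusters at resolution 0.4 and 8 at 1.2, and 62 and 63 of the 63 nuclei of sub-cluster 3 stayed together.

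With 1 library no biological spread is known. The median positive member held 1 or 2 UMIs of each factor counted, so a nucleus without a UMI of a factor is not shown to lack it.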

Other observations

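The 434 Gad nuclei in neither group held 371 with exactly 1 UMI of the Dlx genes and 63 with UMIs of Lhx6 or Lhx8 alone. Gata3 stood at 8.88 CPM in them, with a UMI in 18 nuclei (4.15%), and Isl1 at 85.1 CPM, both between the levels of the members and the Dlx group.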
